A study of Rattus norvegicus with 4 samples.

Results

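The nuclear-encoded respiratory chain genes were described in NR8383 cells, a rat alveolar macrophage line started from lung lavage, after exposure to NM403. They were taken by gene symbol: every gene with a named probe whose symbol begins with Nduf, Uqcr, Cox4i, Cox5, Cox6, Cox7, Cox8 or Atp5, together with Sdha, Sdhb, Sdhc, Sdhd, Cyc1 and Cycs. This gave 89 genes of the 16581 with a named probe, and 121 of the 45598 non-control probes. Cultures were incubated for 4 h with NM403, a multi-walled carbon nanotube, at a dose labelled as 0.8 cm²/cm², and their total RNA was hybridised to Agilent arrays in a single colour. All 4 arrays analysed here came from exposed cultures labelled as biological replicates 1 to 4, so they formed 1 group. The cells had gone through 20 passages and had been seeded for 48 h. Unexposed cultures are part of the design and were not analysed here, and no response to NM403 could therefore be tested. Nothing below is a difference between exposed and unexposed cells. The comparisons are between the replicate cultures and between the complexes of the chain.

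The respiratory chain, in the inner mitochondrial membrane, moves electrons from NADH and succinate to oxygen. It stores the energy as a proton gradient across that membrane, which ATP synthase uses to make ATP. Complex I oxidises NADH, complex II oxidises succinate, complex III passes electrons from ubiquinol to cytochrome c, complex IV passes them to oxygen, and complex V is ATP synthase. A few subunits of complexes I, III, IV and V are encoded in mitochondrial DNA and all others in the nucleus. Those complexes are therefore assembled from both sources, and complex II from nuclear genes alone. Macrophages shift between respiration and glycolysis when they are activated. In mammals, promoters of many of the nuclear genes carry sites for the transcription factor NRF1 (nuclear respiratory factor), and others carry sites for the ETS factor GABP or for YY1.

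Levels are given as log2 of the processed spot signal minus the array's 75th percentile over probes detected everywhere, so a level of 0 is that percentile and each unit is a doubling. A probe's signal depends on its own sequence, so levels were compared between arrays for the same gene and not between genes. On 1 slide, each array held 62976 spots, and 45.9% to 50.8% of its non-control spots were well above background. Feature Extraction marked replicate 4 for evaluation with 2 quality measures out of range and found 0 out of range on the others. Of the 14 macrophage markers measured, 11 were detected on all arrays, among them the lysosomal protein Cd68, the lysozyme gene Lyz2 and the lineage factor Spi1, while Marco and Adgre1 were detected on none and Cd163 on 3. Of 11 markers of other lung and blood cells, 1 (Cdh5) was detected on all arrays, Col1a2 on 2, Sftpc, Acta2 and S100a8 on 1 each, and 6 on none. Precision is limited by the number of arrays throughout.

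The promoter windows of 4 genes are shown because each holds a match to the same NRF1 motif while their probes gave opposite orders of the 4 arrays, as described below. Cycs and Ndufaf4 read highest on replicates 1 and 3, and Atp5mc2 and Atp5po read highest on replicates 2 and 4. The sequences are RefSeq's for rat assembly GRCr8, from 250 bases before to 50 bases after the gene's start, written 5′ to 3′ on the gene's strand. Cycs lies at chr4:80984718-80985017 (minus strand), Ndufaf4 at chr5:43401545-43401844 (plus strand), Atp5mc2 at chr7:135678169-135678468 (minus strand) and Atp5po at chr11:44657434-44657733 (minus strand). Capitals mark a match to GCGCANGCG on either strand, where N is any base; in Cycs it matches on the opposite strand alone, and in the others on both strands.
Cycs: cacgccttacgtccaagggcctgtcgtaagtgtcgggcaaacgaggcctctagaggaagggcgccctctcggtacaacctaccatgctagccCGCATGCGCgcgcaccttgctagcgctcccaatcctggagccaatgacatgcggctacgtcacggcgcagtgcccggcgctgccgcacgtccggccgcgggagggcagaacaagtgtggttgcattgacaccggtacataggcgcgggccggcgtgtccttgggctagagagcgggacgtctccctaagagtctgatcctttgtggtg
Ndufaf4: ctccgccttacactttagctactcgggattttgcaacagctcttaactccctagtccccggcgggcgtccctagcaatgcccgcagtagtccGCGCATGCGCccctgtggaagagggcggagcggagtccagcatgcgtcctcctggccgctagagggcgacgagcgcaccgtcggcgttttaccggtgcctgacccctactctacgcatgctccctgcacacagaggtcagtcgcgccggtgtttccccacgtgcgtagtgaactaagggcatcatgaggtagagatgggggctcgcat
Atp5mc2: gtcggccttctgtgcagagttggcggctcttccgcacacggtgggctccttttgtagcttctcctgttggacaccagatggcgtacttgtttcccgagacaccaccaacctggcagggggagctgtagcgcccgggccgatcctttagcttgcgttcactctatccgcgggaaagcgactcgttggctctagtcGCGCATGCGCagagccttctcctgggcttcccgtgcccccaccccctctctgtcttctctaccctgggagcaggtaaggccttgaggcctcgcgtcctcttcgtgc
Atp5po: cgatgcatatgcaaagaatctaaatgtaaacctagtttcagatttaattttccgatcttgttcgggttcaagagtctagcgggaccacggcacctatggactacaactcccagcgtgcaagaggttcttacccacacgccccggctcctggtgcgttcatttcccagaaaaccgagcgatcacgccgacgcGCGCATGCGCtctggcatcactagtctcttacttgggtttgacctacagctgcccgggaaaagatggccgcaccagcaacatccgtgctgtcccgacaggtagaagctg
The stretch begins at base 93 of the window in Cycs and Ndufaf4, at base 195 in Atp5mc2 and at base 192 in Atp5po, counted from 1 at the 5′ end.

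In all, 77 of the 89 genes matched a promoter in the RefSeq table, and 9 motifs were searched on both strands. GCGCANGCG was in 19 of the 77 windows (24.7%) and in 5.80% of all 33469 windows of the same length. The shorter NRF1 spelling GCGCATGC, which overlaps it, was in 12 (15.6%) against 2.47% of all windows. The YY1 letters AAGATGGC were in 15 (19.5%) against 3.17%, in genes that include Ndufs7, Sdhc, Uqcrc1 and Atp5mf. The ETS letters CCGGAAGT were in 8 (10.4%) against 3.81%, in Atp5f1a, Cox5b, Cox8a, Ndufa13, Ndufb7, Ndufs1, Uqcrh and Uqcrq. TGACGTCA, the CREB site, was in 4 (5.20%) against 1.83%. The SP1 letters GGGGCGGGG were in 4 (5.20%) against 9.73% of all windows, and TATAAA was in 6 (7.79%) against 14.2%. CCAAT was in 26 (33.8%) against 37.5%, and CACGTG in 6 (7.79%) against 6.42%. A match is a run of letters in a window and does not show that a factor binds there. The 33469 windows outnumber the 16581 genes with a named probe, and no share over measured or detected genes alone is given. Among genes with replicates 2 and 4 highest, GCGCANGCG was in 11 of 51 windows, and among those with replicates 1 and 3 highest it was in 4 of 12. The ETS letters were in 7 of 51 and 0 of 12, and the YY1 letters in 9 of 51 and 1 of 12. These splits were not tested.

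Most of the measured genes were detected. Of the 89 genes, 84 (94.4%) were detected on all 4 arrays, against a background of 47.9% of all genes with a named probe. They comprised 31 of 33 complex I subunit genes, 4 of 4 of complex II, 9 of 9 of complex III, 16 of 19 of complex IV, 16 of 16 of complex V, 7 of 7 complex I assembly factors and Cycs. Ndufa4 and Ndufa4l2 were counted with complex IV, where the NDUFA4 protein is now placed. The 5 genes not detected on all arrays were 2 of complex I and 3 of complex IV. Ndufs4, an accessory subunit of complex I, was detected on none and read -7.50, -7.28, -8.17 and -6.86 on replicates 1 to 4. It had 1 named probe, so the reading rests on that probe alone. Ndufa10, another accessory subunit, read -4.28, -4.72, -4.28 and -5.55 and was detected on 3 arrays. The related gene Ndufa10l1 was detected on all arrays at 2.25, 2.76, 2.20 and 2.77, and signal of near-identical copies cannot be told apart here. A further 32 protein-coding genes of the RefSeq table fit the symbols and had no named probe, among them Ndufs6, Ndufa3, Ndufa8, Ndufb1, Ndufc1, Ndufaf2, Atp5mc3, Cox7a1 and Cox7b2, and many of the rest are named as copies (such as Ndufb4l1). The 13 mitochondrially encoded subunits had none either.

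Complex IV has isoforms known from particular tissues, and these divided. Cox8b, the heart and muscle isoform of subunit 8, was detected on none, with levels of -7.42, -8.37, -7.44 and -6.57. Cox8c, known from testis, was detected on replicate 3 alone, at -5.41, against -8.50, -8.35 and -7.92 on replicates 1, 2 and 4. Ndufa4l2, a relative of Ndufa4 induced in low oxygen, was detected on none and read -8.33, -8.18, -8.04 and -7.87. So 3 of these isoform genes lay at or near background. Cox4i2, the isoform of subunit 4 known from lung, was detected on all arrays at -2.43, -1.90, -2.05 and -1.74. Cox6b2, known from testis, was detected on all arrays at -0.25, -0.17, 0.07 and 0.02. Cox6a2, the heart and muscle isoform of subunit 6a, was detected on all arrays at -3.72, -3.68, -3.87 and -3.41. Its other probe read -3.41, -3.35, -3.80 and -4.18, so the probes did not share an order of the arrays. Of 5 muscle and heart markers, Acta1, Myh7, Ckm and Tnni3 were detected on none and the myoglobin gene Mb was detected on all arrays at -3.72, -2.92, -3.32 and -2.74.

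The spread of the 84 detected genes between the cultures was near that of other genes in this scaling. Their median SD over the 4 arrays was 0.25 log2 units, against 0.23 for all 7935 genes whose brightest probe was detected on all arrays. Quantile normalization gave 0.167 against 0.250, and scaling on all probes gave 0.425 against 0.354, so which was larger depended on the setting. The highest array was more than 1.5-fold above the lowest for 31 of the 84 (36.9%), against a background of 37.9%. It was more than 2-fold above for 4 of them, against a background of 13.6%. These 4 were Ndufaf4, Cox6c-ps1, Cox7c and Cycs, at 4.06-fold, 2.55-fold, 2.12-fold and 2.02-fold. Of these, Cycs alone lay in the top bin. Cox6c, also in that bin, fell just below the cut, at 1.998-fold. The backgrounds of 37.9% and 13.6% cover genes of all levels, whereas the top bin of signal, described below, held 65 of the 84. In that bin the median SD was 0.26 for the 65 chain genes, against 0.23 for all 1323 genes. The range was above 1.5-fold for 35.4% of the 65, against 29.4% of the 1323. It was above 2-fold for 1 of the 65, against 44 of the 1323. These differences were not tested.

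**Figure D1:**
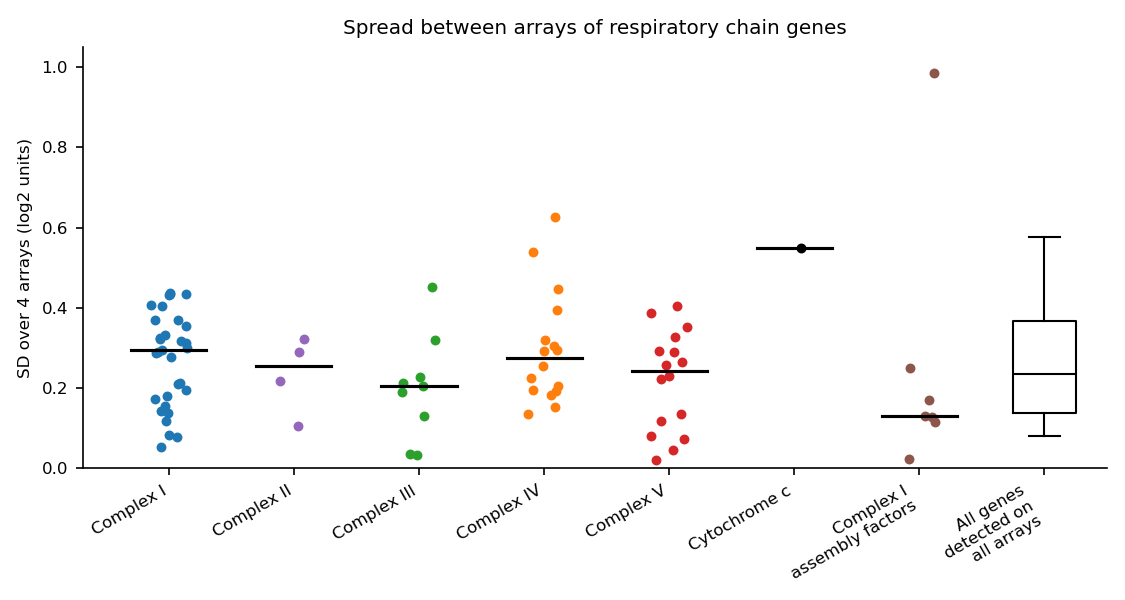
Each point is the SD of 1 gene over the 4 arrays in log2 units (y axis), by complex (x axis), and the bars are medians. The box at the right covers the middle 50% of all 7935 genes detected on all arrays, with whiskers to the 10th and 90th percentiles; Ndufaf4 is the highest point, at 0.99, and the medians of complexes I to V lie between 0.21 and 0.30.

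The arrays shared an order in most of these genes. Replicates 2 and 4 were the 2 highest readings for 60 of the 84 genes (71.4%), against a background of 47.3%. Replicates 1 and 3 were the 2 highest for 14 (16.7%), against 34.5%, and 10 had another pair. The median deviation of the 84 genes from their own means was -0.18, 0.17, -0.15 and 0.17 for replicates 1 to 4. The same order held for strongly hybridised genes in general. In the top of 6 equal bins of signal, where 65 of the 84 genes lay, the median deviations of all 1323 genes were -0.17, 0.17, -0.16 and 0.15, and replicates 2 and 4 were highest for 72.6% of them. In the lowest bin, which held 0 of the 84, the medians were 0.05, -0.10, 0.06 and -0.03. With this dependence on level removed on each array, replicates 2 and 4 were highest for 46 of the 84 (background 43.0%) and replicates 1 and 3 for 24 (background 37.3%). This removal was added after the data were seen. What set the order of the arrays was not tested.

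**Figure D2:**
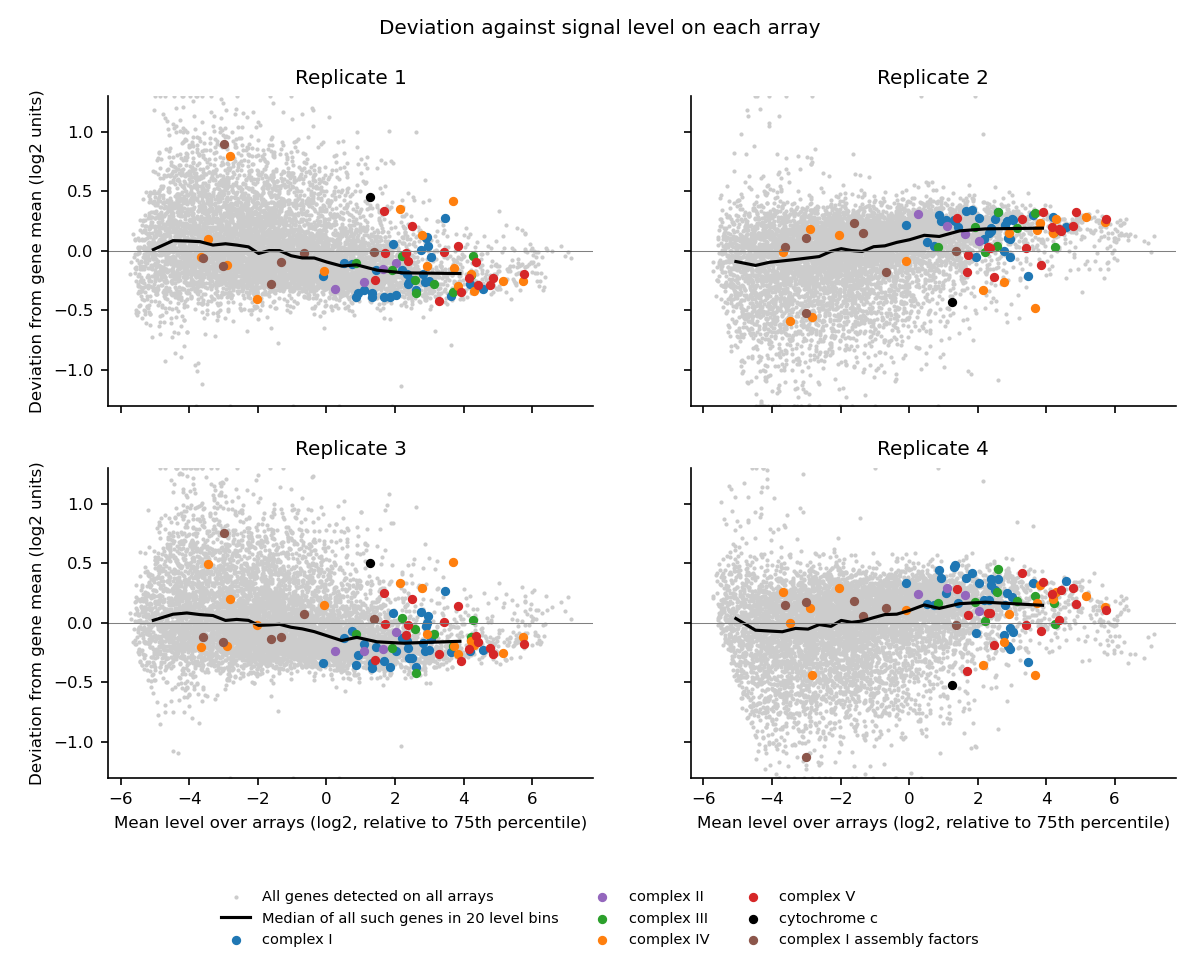
Each panel is 1 array, with the mean level of a gene over the arrays (x axis, log2 relative to the 75th percentile) against its deviation from that mean (y axis, log2 units); grey points are all genes detected on all arrays, drawn at the edge of the panel where they lie beyond it, the black line is their running median and coloured points are respiratory chain genes. The line falls below 0 at high levels on replicates 1 and 3 and rises above 0 on replicates 2 and 4. Most coloured points follow it, while others, among them Cycs, Cox6c and Cox7b, lie on the other side.

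The pairs of arrays differed in the same way. Between replicates 1 and 3 the median absolute difference of the 84 genes was 0.0635 log2 units, and between replicates 2 and 4 it was 0.0823. For the other 4 pairs it was 0.405 to 0.452. Over all 7935 genes the values were 0.0731, 0.0942 and 0.359 to 0.381.

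Complex I subunits had a median SD of 0.30, and replicates 2 and 4 were highest in 24 of 31, with replicates 1 and 3 highest in 4; with the level trend removed the counts were 20 and 6. All 7 core subunits, which carry the flavin and iron-sulfur groups and the quinone site, had replicates 2 and 4 highest, and 5 had with the level trend removed. For these counts, here and in the other complexes, the background for replicates 2 and 4 was 47.3%, and 72.6% in the top bin of signal. For replicates 1 and 3 it was 34.5%, and 17.2% in that bin. With the level trend removed, the backgrounds over all genes were 43.0% and 37.3%. Ndufs7, an iron-sulfur subunit near the quinone site, read 0.95, 1.59, 1.0 and 1.82. Ndufs3, a core subunit beside it, read 0.97, 1.58, 0.94 and 1.79. Ndufs8, another iron-sulfur subunit, read -0.30, 0.13, -0.43 and 0.24. In these genes replicates 2 and 4 lay above replicates 1 and 3 with no overlap, as they did in 47.3% of all 7935 genes. Ndufv1, which binds the flavin, read 2.60, 3.12, 2.63 and 3.11. Ndufv2 (2.15, 2.49, 2.19 and 2.53) and Ndufs1 (0.41, 0.59, 0.39 and 0.67) ran the same way over a smaller range. The core subunits thus differed from each other mainly in how far the arrays were spread, with SDs of 0.14 to 0.43.

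The accessory subunits of complex I were less uniform. Ndufb10 had the largest SD of complex I, at 0.44, and read 1.46, 2.19, 1.48 and 2.27. Ndufab1, the mitochondrial acyl carrier protein, read 1.28, 1.64, 1.24 and 1.61. Ndufa1, Ndufa5, Ndufc2 and Ndufs5 had replicates 1 and 3 highest. Ndufa5 read 3.75, 3.26, 3.74 and 3.14, a 1.53-fold range against the order of the core subunits. Ndufc2 at 3.00, 2.91, 3.01 and 2.91 and Ndufs5 at 2.78, 2.77, 2.86 and 2.67 were close to level across the arrays. These had the smallest SDs of the complex, at 0.05 and 0.08.

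All 4 genes of complex II had replicates 2 and 4 highest (3 with the level trend removed), with a median SD of 0.25. Sdhc, a membrane anchor, read -0.07, 0.56, 0.01 and 0.49. Sdhb, the iron-sulfur subunit, read 0.84, 1.31, 0.87 and 1.40, and Sdha, the flavoprotein that oxidises succinate, read 1.49, 1.78, 1.42 and 1.87. Sdhd, the other anchor, was the steadiest, at 1.93, 2.12, 1.96 and 2.13.

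Complex III had a median SD of 0.21. Replicates 2 and 4 were highest in 7 of its 9 genes and replicates 1 and 3 in 0, and with the level trend removed in 3 and 2. Uqcrfs1, the Rieske iron-sulfur protein, had the widest range, at 2.25, 2.93, 2.18 and 3.05. Cyc1, which passes electrons to cytochrome c, read 3.34, 4.00, 3.49 and 3.91. The core proteins Uqcrc1 (1.76, 2.12, 1.71 and 2.09) and Uqcrc2 (0.75, 0.89, 0.76 and 1.02) ran the same way, as did Uqcrh, Uqcr10 and Uqcr11. Uqcrb, a subunit beside the quinone site, was nearly level at 2.17, 2.20, 2.25 and 2.22, and Uqcrq at 4.23, 4.31, 4.30 and 4.26. A much dimmer probe of Uqcrq read -4.27, -5.17, -4.32 and -5.40, so its 2 probes did not agree in order.

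Cycs, the electron carrier between complexes III and IV that also triggers caspase activation when it leaves mitochondria, ran against most of the chain. It read 1.71, 0.83, 1.76 and 0.74, an SD of 0.55. Replicates 1 and 3 lay above replicates 2 and 4 by close to 1 log2 unit. Its other probe read 0.45, -0.09, 0.50 and -0.08, with replicates 1 and 3 again highest over a smaller range.

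Complex IV was mixed, with replicates 2 and 4 highest in 10 of 16 genes and replicates 1 and 3 in 5 (8 and 5 with the level trend removed), and a median SD of 0.27. Cox4i1, the common isoform of subunit 4, read 4.89, 5.43, 4.89 and 5.37. Cox5a read 3.54, 4.07, 3.57 and 4.15, and Cox5b, a peripheral subunit, read 3.96, 4.56, 4.11 and 4.55. Cox6a1, Cox6b1, Cox7a2, Cox8a and Cox7a2l, a factor of supercomplex assembly, also had replicates 2 and 4 highest, with ranges of 1.22-fold to 1.41-fold. Cox6c, a small membrane subunit, ran the other way at 4.10, 3.20, 4.19 and 3.24. Its second probe read 2.43, 1.48, 2.40 and 1.34. Both probes therefore put replicates 1 and 3 about 1 log2 unit above replicates 2 and 4. Cox7b read 2.50, 1.82, 2.48 and 1.79, and Ndufa4 read 2.91, 2.52, 3.07 and 2.62. Cox7c, with a dim probe, read -3.37, -4.06, -2.98 and -3.47, so its replicates 1 and 4 were close. Cox6c-ps1, a transcribed pseudogene of Cox6c, read -2.02, -3.37, -2.62 and -3.26 on one probe, and its other probe was detected on none. Signal from Cox6c and its pseudogene cannot be told apart here.

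**Figure D3:**
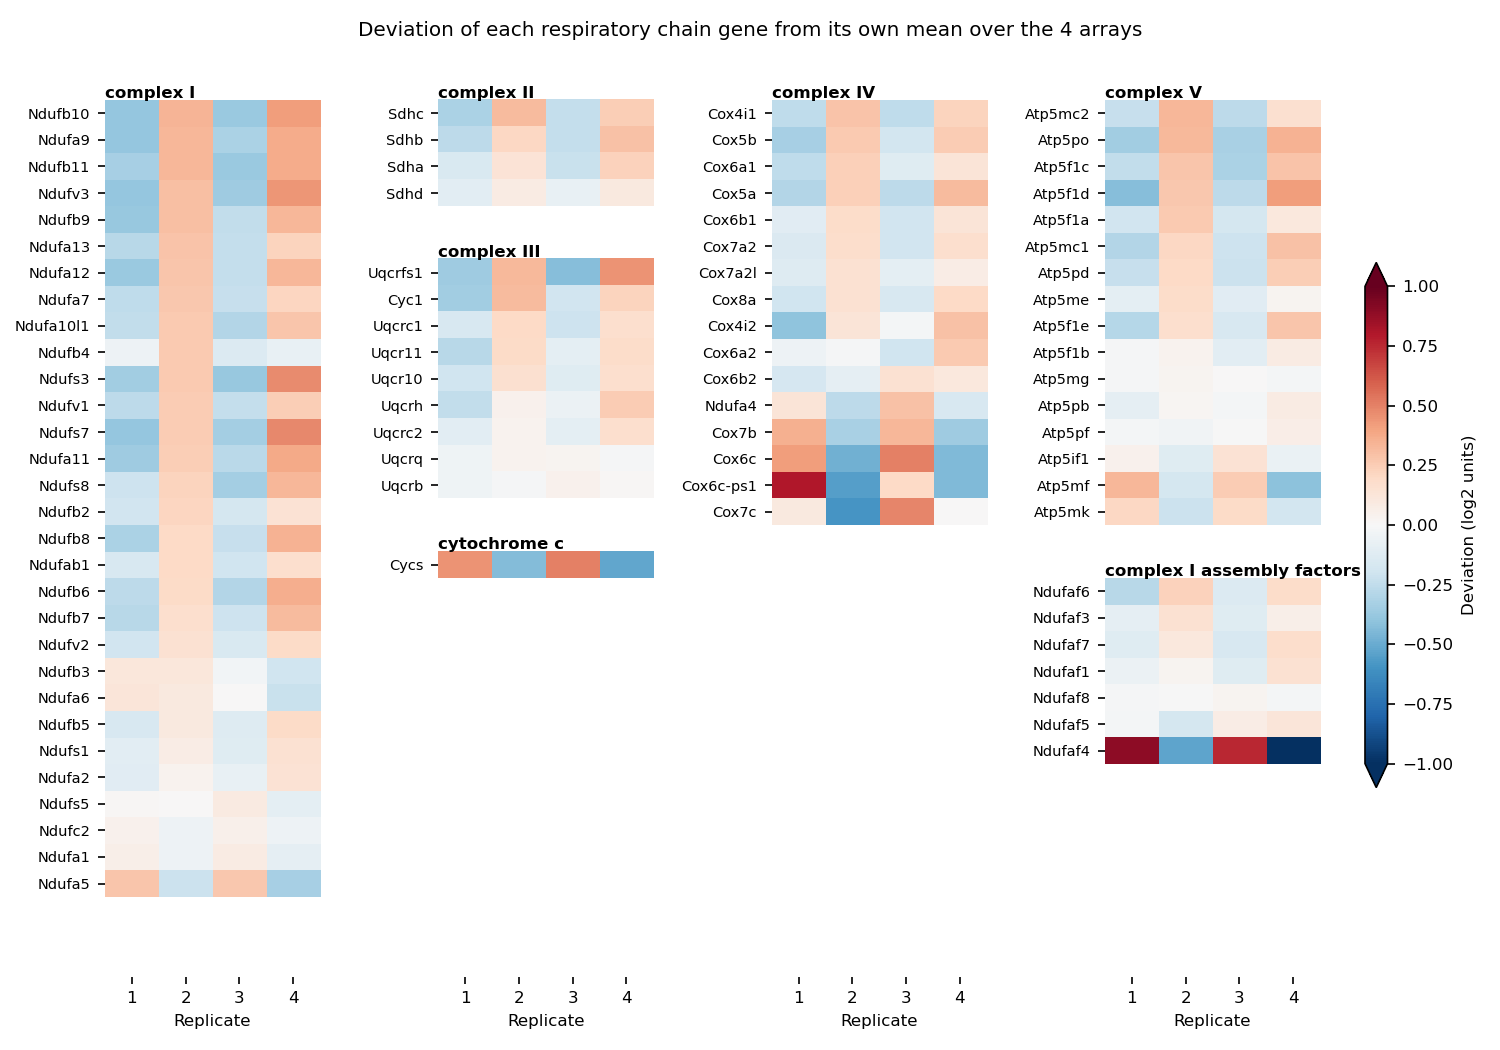
Rows are genes of the chain detected on all arrays (1 is not shown), sorted within each complex by their deviation on replicate 2, columns are the 4 replicates, and the colour is the deviation from the gene's mean in log2 units, saturating at 1. Most rows are blue on replicates 1 and 3 and red on replicates 2 and 4. Ndufa5, Ndufa4, Cox7b, Cox6c, Cox6c-ps1, Cycs, Atp5mf, Atp5mk and Ndufaf4 are among the rows that show the opposite.

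In complex V, replicates 2 and 4 were highest in 11 of 16 genes and replicates 1 and 3 in 3 (8 and 7 with the level trend removed), with a median SD of 0.24. The 5 genes of the F1 head all had replicates 2 and 4 highest, and 4 had with the trend removed. Atp5f1d, the delta subunit, read 2.87, 3.56, 3.03 and 3.71, and Atp5f1c, the gamma shaft, read 1.16, 1.68, 1.09 and 1.69. Atp5f1a, the alpha subunit, read 5.56, 6.02, 5.58 and 5.86. Atp5f1b, the catalytic beta subunit, had a far smaller range, at 2.30, 2.35, 2.21 and 2.40. Atp5po, which joins the stalk to the head, read 3.58, 4.25, 3.60 and 4.27. Among the genes of the c ring, Atp5mc1 read 4.49, 4.99, 4.57 and 5.07 and Atp5mc2 read 4.63, 5.19, 4.60 and 5.02. A probe of Atp5mc2 printed 10 times per array averaged 2.47, 3.07, 2.49 and 3.07, with an SD among its spots of 0.0292 to 0.0725 within an array. The spots of this probe share an array and a culture, so their SD covers the printing and reading of spots alone.

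Several other subunits of ATP synthase were steady or ran the other way. Atp5mg read 3.41, 3.45, 3.43 and 3.40, the smallest SD of all 84 genes at 0.02. Atp5pf read 1.70, 1.68, 1.71 and 1.78, and Atp5pb, the stalk subunit b, read 2.28, 2.39, 2.35 and 2.45. Atp5mf read 2.02, 1.51, 1.94 and 1.28. Atp5mk read 2.69, 2.27, 2.68 and 2.30, and its 4 probes all had replicates 1 and 3 highest. Atp5if1, the inhibitor that binds the synthase when the membrane potential falls, read 3.88, 3.72, 3.98 and 3.77, a range of 1.20-fold.

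**Figure D4:**
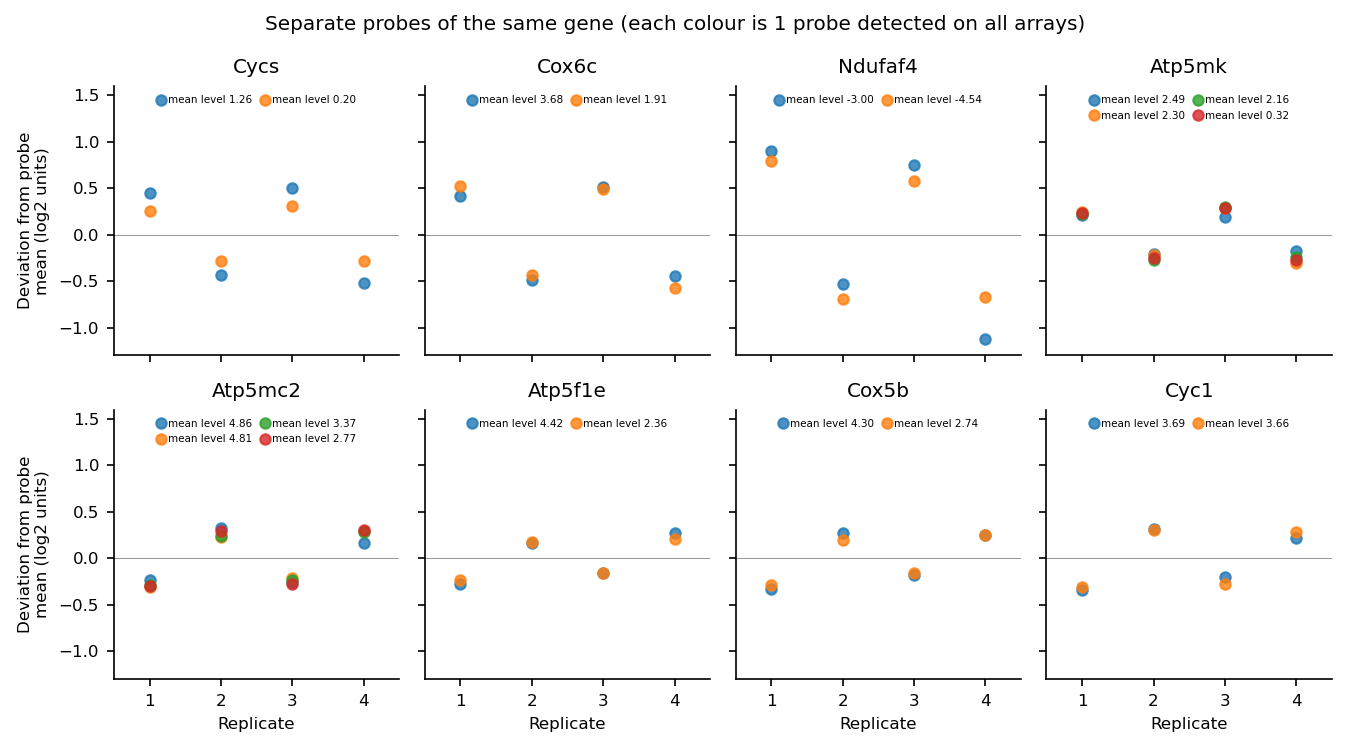
Points are the deviations of separate probes, those detected on all arrays, of 8 genes from each probe's own mean (y axis, log2 units) on the 4 replicates (x axis), with the probe's mean level in the legend. In each of these genes the plotted probes put the same 2 arrays highest, replicates 1 and 3 for Cycs, Cox6c, Ndufaf4 and Atp5mk and replicates 2 and 4 for Atp5mc2, Atp5f1e, Cox5b and Cyc1.

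Separate probes of a gene were also set side by side. Of 21 genes with several probes detected on all arrays, 18 had the same 2 highest arrays in every probe, the exceptions being Cox6a2, Ndufb4 and Uqcrq. Over all 1504 such genes the background was 60.4%, and over the 407 of them in the top bin of signal it was 64.1%. The largest difference in deviation between probes of a gene had a median of 0.13 and a maximum of 0.76 log2 units, in Cox6a2.

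The 7 complex I assembly factors, which build the complex and are not part of it, had a median SD of 0.13. With the level trend removed it was 0.20. Over all 7935 genes the medians were 0.23 and, with the trend removed, 0.21. Ndufaf4 had the widest range of all 84 genes, at -2.10, -3.52, -2.24 and -4.12. Its second probe read -3.75, -5.22, -3.96 and -5.21, in the same order, and its other probe was detected on none. Ndufaf3, whose product binds that of Ndufaf4, read -1.42, -1.18, -1.45 and -1.27. Ndufaf8 was level at 1.37, 1.38, 1.41 and 1.36. Thus Ndufaf4 and Ndufaf3 had opposite orders of the arrays.

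Of the 14 genes with replicates 1 and 3 highest, 5 had them highest under all 6 settings of scaling, normalization, background and level trend: Cox6c, Cox6c-ps1, Cox7b, Cycs and Ndufaf4. That is 5 of 84, against a background of 17.2% of all 7935 genes. As signal from Cox6c and Cox6c-ps1 cannot be told apart, these may not be 5 separate signals. The order of the other genes among the 14 moved with at least 1 setting.

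Among genes around the chain, 30 of the 35 measured assembly factors of other kinds were detected on all arrays, with a median SD of 0.20. The list for the tricarboxylic acid cycle also held the pyruvate dehydrogenase genes Pdha1, Pdhb and Dlat. Its 17 genes were all detected on all arrays, with a median SD of 0.23 and replicates 2 and 4 highest in 10. Pdha1, a subunit of pyruvate dehydrogenase, read -0.59, -1.45, -0.80 and -2.20, and Dld, shared by several dehydrogenases, read 0.22, -1.11, 0.23 and -0.84. Both had replicates 1 and 3 highest, as Cycs did. Of 17 genes of other electron inputs and coenzyme Q synthesis, 16 were detected on all arrays, with a median SD of 0.21. The 68 mitochondrial ribosomal protein genes were all detected on all arrays and had replicates 2 and 4 highest in 48 and replicates 1 and 3 in 8, and in 43 and 14 with the level trend removed. For the proteasome the counts were 30 and 5 of 38 genes, and 20 and 8 with the trend removed. For cytosolic ribosomal proteins they were 50 and 22 of 90, and with the trend removed 28 and 48, so the more common order turned. For the tricarboxylic acid cycle list the trend-removed counts were 8 and 4. No comparison with the chain was tested.

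Of 16 regulators of mitochondrial biogenesis, 15 were detected on all arrays, against a background of 47.9%. The coactivator gene Ppargc1a was detected on none, at -8.36, -8.22, -8.08 and -7.91. Its relatives Ppargc1b (-4.16, -4.75, -3.86 and -4.66) and Pprc1 (-0.95, -0.95, -0.84 and -0.92) were detected on all arrays. Replicates 2 and 4 were highest in 5 of the 15 and replicates 1 and 3 in 6, against backgrounds of 47.3% and 34.5%. Gabpa, the DNA-binding subunit of GABP, read -2.60, -4.45, -2.63 and -4.68, an SD of 1.13. Nrf1 read -3.53, -3.23, -3.70 and -3.07, and Tfam, which packages mitochondrial DNA, read -1.24, -1.13, -1.20 and -1.11. Gabpa thus had replicates 1 and 3 highest, as Cycs did. Nrf1 had replicates 2 and 4 highest, as most of the chain did. Yy1 (-3.46, -4.04, -3.51 and -3.77) also had replicates 1 and 3 highest, while Gabpb1 (-2.86, -2.75, -3.0 and -3.11) had replicates 1 and 2 highest. A link between these regulators and the chain was not tested.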

How the data were processed

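Total RNA from 4 exposed cultures was labelled with Cy3 and hybridised to 1-colour Agilent rat arrays. The authors deposited the intensity of each spot, and the submitters' processing notes name Agilent Feature Extraction 11.0.1.1. Per the file headers, the software subtracted background from the processed intensity and detrended it, did not normalize arrays to each other, and used a design of build rn4. Medians of spot and local background intensity and the software's 0 or 1 flags were also used.

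Control spots and outlier spots (623 to 1016 per array) were left out; 0 spots were saturated. Signals were put on a log2 scale from the deposited intensity and each array's 75th percentile over probes detected everywhere (34.2% of probes) was subtracted, which hides any change in total messenger RNA. Spots of a probe were averaged, and a gene took its brightest probe. A probe was detected where more than 50% of its spots were well above background. Probe accessions, without version, were matched to the RefSeq gene table of GRCr8, and 21109 probes (46.3%) matched 1 symbol, 0 several and 24489 none. As the builds differ, no array coordinates are given.

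With 1 group, no test between groups was made. SDs, ranges and counts are descriptions beside the same over all genes, and the spread counts the labelled cultures, whose origin beyond the label "biological replicate" is not stated here. The level dependence was removed with a lowess curve (span 0.3). The calculation was tested on simulated data. The members and lists were chosen with earlier results of these data known. Genes named were the core, tissue and structural subunits listed by symbol, in each complex the 3 with the largest and the 2 with the smallest SD, all not detected on every array and those whose probes disagreed in detection; other genes named were chosen after their values were seen. Tools were Python 3.11.15, pandas 2.3.3, numpy 2.4.6, statsmodels 0.14.6, R 4.3.3 and limma 3.58.1 (normexp, offset 50). The values of 1 gene of complex I are not reported singly here.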

Additional observations from a re-analysis of the deposited data

How the results depend on the processing

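With 1 group of 4 arrays, the spread is known only roughly, dim probes are limited by signal over background, and nothing separates culture from labelling or array. No paired analysis was possible because there is 1 group. Alternatives were the scaling, quantile normalization, normexp on the median spot signal, the probe rule, filters on dim genes, detection rules, outlier spots, leaving out each replicate in turn, and removal of the level trend, which was chosen after seeing the data. Leaving out a replicate moved no summary value beyond the spread between replicates or 1.5 times a count. Summary values moved in 28 cases, turned sign in 2 and otherwise kept their place in 150; for single genes 280 moved, 0 turned sign and 1358 did not move.

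Scaling on the 75th percentile of all probes put the median deviation of all 7935 genes at -0.21, 0.23, -0.25 and 0.23 on replicates 1 to 4, against -0.04, 0.04, -0.05 and 0.05 in the report's setting. It gave a median SD of 0.425, a range above 1.5-fold in 64 genes, mean deviations of -0.294, 0.289, -0.295 and 0.2997 (-0.12, 0.10, -0.10 and 0.12 in the report), and SDs of 0.501, 0.466, 0.401 and 0.386 for complexes I, II, III and V. Scaling on the median of all probes put that median at -0.11, 0.31, -0.28 and 0.08 and gave 0.404, 68 genes, mean deviations of 0.372 on replicate 2 and -0.325 on replicate 3, and SDs of 0.476, 0.436, 0.375 and 0.384. Quantile normalization gave a median SD of 0.167, and 0.168, 0.113 and 0.107 for complexes II, III and V. Removing the level trend gave 0.167, 17 genes, mean deviations turned to -0.0259 on replicate 2 and 0.0149 on replicate 3, and SDs of 0.189, 0.114, 0.116 and 0.146 for complexes I, II, III and V. Replicates 2 and 4 were highest in 74, 69, 50 and 46 of the 84 genes under these 4 settings and in 59 under normexp, against 60 in the report; replicates 1 and 3 were highest in 7, 7, 23, 24 and 14, against 14.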
